A study of Mus musculus with 20 samples.

Results

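Messenger RNA of 10 genes whose products write or erase marks on histones or DNA was followed across 20 RNA sequencing libraries of B cells sorted from mouse germinal centres. The genes were picked by name, as chromatin modifiers that are mutated or targeted in lymphoma, from the 23382 gene symbols of the deposited files, and all 10 were found. They were Ezh2, Eed and Suz12, the core of Polycomb repressive complex 2 (PRC2), the acetyltransferases Crebbp and Ep300, the DNA demethylases Tet2 and Tet3, and the DNA methyltransferases Dnmt1, Dnmt3a and Dnmt3b. The study compared mice of genotype Cgamma1Cre:+/-; Myd88L252P:+/- (mutant) with mice of genotype Cgamma1Cre:+/-; Myd88L252P:WT (control). Both genotypes thus carried 1 copy of Cre at the C gamma 1 locus, which is switched on in germinal centre B cells. Myd88 is the adaptor of Toll-like and interleukin-1 receptors, and the L252P allele is the mouse form of a mutation frequent in human B cell lymphoma. From each genotype, centrocytes (sorted as B220+FAS+GL7+CXCR4-CD86+, the selected cells of the light zone) and centroblasts (B220+FAS+GL7+CXCR4+CD86-, the dividing cells of the dark zone) were taken, with 5 libraries in each of the 4 groups. The labels give neither the age of the mice nor whether each library is a mouse of its own, so a p-value here reflects the spread between these libraries, which may be technical.

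Germinal centre B cells divide fast and hold back the genes of cell cycle exit and plasma cell differentiation while they mutate their antibody genes. PRC2 contributes by methylating histone H3 at promoters (the mark H3K27me3), CREBBP and EP300 open the enhancers of antigen presentation and exit genes by acetylation, TET enzymes oxidise methylated cytosine, and DNMT1 copies DNA methylation at each division while DNMT3A and DNMT3B place it anew. Gain-of-function mutations of EZH2 and loss of CREBBP, EP300, TET2 or DNMT3A recur in human lymphomas.

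The regulatory sequence before the transcription start is shown for 4 members that frame the results: Dnmt3a and Tet2, which were higher in centrocytes, Dnmt3b, the sister gene of Dnmt3a with far smaller differences, and Suz12, the only member with an E2F word in a window outside annotated exons. The windows shown for Dnmt3a and Tet2 lie within the gene's GENCODE span but in no annotated exon. Those of Dnmt3b and Suz12 lie just upstream of the gene. Dnmt3a has 3 windows, of which only the first, shown here, is free of annotated exons. Each is the 250 bases before a RefSeq start, read 5′ to 3′ on the strand of the gene in GRCm38.p6 (the assembly of mm10). All 10 members matched, with 14 windows. Lower case is plain sequence, and capitals mark the E2F word, which was searched on both strands as TTT, then 2 bases that are each C or G, then CGC.
Dnmt3a, chr12:3806730-3806979, plus strand: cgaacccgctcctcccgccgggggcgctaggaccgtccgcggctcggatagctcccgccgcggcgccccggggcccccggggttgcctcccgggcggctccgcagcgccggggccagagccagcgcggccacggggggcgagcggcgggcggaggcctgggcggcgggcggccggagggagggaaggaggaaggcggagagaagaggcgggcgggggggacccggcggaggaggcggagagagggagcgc
Dnmt3b, chr2:153649199-153649448, plus strand: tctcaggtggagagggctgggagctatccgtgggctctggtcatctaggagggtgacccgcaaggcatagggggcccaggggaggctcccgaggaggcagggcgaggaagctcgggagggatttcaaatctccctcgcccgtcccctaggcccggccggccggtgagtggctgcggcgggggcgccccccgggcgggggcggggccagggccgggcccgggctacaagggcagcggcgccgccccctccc
Tet2, chr3:133544391-133544640, minus strand: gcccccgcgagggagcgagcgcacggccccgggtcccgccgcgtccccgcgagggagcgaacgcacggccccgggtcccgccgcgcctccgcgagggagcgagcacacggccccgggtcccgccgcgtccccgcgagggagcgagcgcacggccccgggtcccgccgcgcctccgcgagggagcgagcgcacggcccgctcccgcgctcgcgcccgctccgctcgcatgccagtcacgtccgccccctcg
Suz12, chr11:79992856-79993105, plus strand: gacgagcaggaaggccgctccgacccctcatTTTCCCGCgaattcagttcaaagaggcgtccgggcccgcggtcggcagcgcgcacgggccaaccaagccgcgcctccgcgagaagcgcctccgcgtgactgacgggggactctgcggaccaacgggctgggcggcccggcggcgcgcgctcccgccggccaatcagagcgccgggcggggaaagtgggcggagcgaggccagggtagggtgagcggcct
These windows are rich in CG pairs, the dinucleotide that DNA methyltransferases act on, with 38 in Dnmt3a, 21 in Dnmt3b, 51 in Tet2 and 37 in Suz12, against a median of 6 over 32851 RefSeq windows of the same length. The further windows of Dnmt3a, not shown, hold 40 and 15. The E2F word stood in 2 of the 14 member windows, the one of Suz12 and 1 of the 3 windows of Dnmt1, which overlaps annotated exons. It stood in 611 (1.86%) of all windows. E2F factors drive genes of DNA replication, but a match of letters is not a bound site, and the libraries measured no binding.

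Values are TPM, the authors' length-normalised transcript abundance, which are corrected for transcript length and sum to the same total in each library. TPM keeps no read depth, so no counting interval can be given. A difference of summed TPM in sorted cells can come from fewer cells of a type or from less RNA per cell, and these cannot be told apart. Differences were tested with limma on log2(TPM + 1) over 11386 genes that had at least 1 TPM in at least 5 libraries, with Benjamini-Hochberg adjustment over all of them, and a gene was called at an adjusted p under 0.05. All 10 members passed this filter. Fold changes below are log2 values after 1 TPM was added, which makes those of the lowest genes too small.

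The libraries carried the identity they were sorted for. Bcl6, which defines germinal centre B cells, lay between 154 and 387 TPM, and T cell markers summed to at most 17.2 TPM in any library. Cxcr4 was lower (log2 fold change -1.19 in mutants and -0.92 in controls) and Cd86 higher (1.22 and 1.17) in centrocytes than in centroblasts (limma, adjusted p at most 5.99e-05). Mutant libraries also had less Cxcr4 than controls, the sort gene itself (-0.86 in centrocytes and -0.59 in centroblasts, limma, adjusted p = 0.00277 and 0.0270). Myd88 checks nothing here, since TPM does not show the altered base. Mutant centroblast libraries 4 and 5 stood apart. Their median gene with a transcript of 7 kb or longer (821 such genes tested) was -0.74 and -1.15 on the log2 scale relative to the mean of control centroblasts, while the other 3 mutant centroblast libraries lay between -0.21 and 0.13. Control centroblasts lay between -0.15 and 0.31, control centrocytes between 0.18 and 0.55 and mutant centrocytes between 0.24 and 0.63. Crebbp, Ep300, Tet2, Tet3 and Dnmt3a have transcripts of 7 kb or longer, so results are given with and without those 2 libraries. Results are also given with the length trend removed, an alternative chosen after these data were seen. That trend is each library's curve of log2 deviation from the gene mean on transcript length. Its removal also brought the median change from centroblasts to centrocytes over all genes near 0 (0.008 in mutants and -0.0004 in controls). It thus shifts genes of every length.

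The members fell into an abundant and a scarce set. Dnmt1 and Ezh2 were the most abundant, with means over all 20 libraries of 292 and 260.5 TPM, followed by Suz12 (207 TPM) and Eed (194 TPM), and each of these 4 had a mean above that of at least 91.4% of tested genes. Ep300 came next at 46.6 TPM, then Crebbp at 18.4, Tet3 at 17.1, Dnmt3a at 8.17, Tet2 at 3.32 and Dnmt3b at 2.79 TPM. Within control centrocytes the libraries of neighbours in this order did not overlap, except for Dnmt1 with Ezh2, Tet3 with Crebbp and Tet2 with Dnmt3b. In mutant centroblasts the ranges of nearly all neighbours overlapped, with gaps only between Suz12 and Ep300 and between Dnmt3b and Tet2. Tet1, the remaining TET gene, averaged 0.584 TPM in mutant centrocytes and less in the other groups, under the level that was tested.

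**Figure D1:**
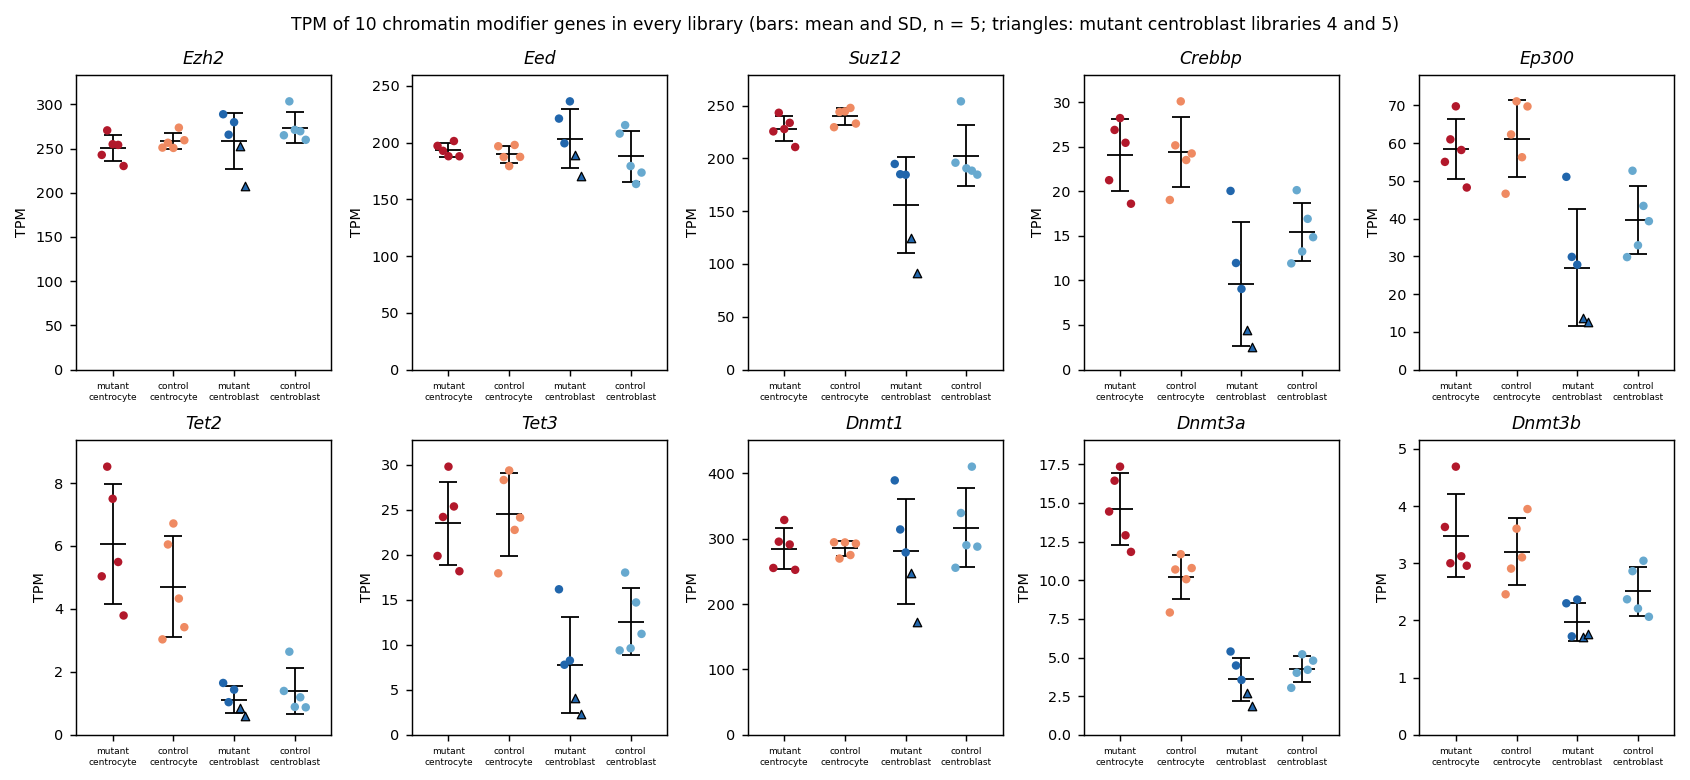
TPM of each of the 10 genes (vertical axis, from 0, with its own scale) in the 5 libraries of mutant centrocytes, control centrocytes, mutant centroblasts and control centroblasts; points are libraries, bars the mean and SD, and triangles mutant centroblast libraries 4 and 5. Dnmt3a lies between 11.8 and 17.3 TPM in mutant centrocytes and between 7.91 and 11.7 TPM in control centrocytes, above all centroblasts, while Ezh2 and Eed overlap between the zones.

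Between zones, Dnmt3a, Tet2 and Tet3 rose in centrocytes of both genotypes, and no member fell on TPM as deposited, although Ezh2, Dnmt1 and, in mutants, Eed did with median-of-ratios scaling. In mutants 7 of 10 members were higher in centrocytes than in centroblasts, where 61.5% of all tested genes were called, 48.8% higher and 12.6% lower. In 5 of the 10 the groups did not overlap (36.6% of all genes). In controls 3 of 10 were higher, where 30.7% of all genes were called, 21.2% higher and 9.48% lower, and in 2 of the 10 the groups did not overlap (26.5% of all genes). Read against these shares, the counts are no result about the members as a set. The median change of the 10 was 0.93 in mutants and 0.44 in controls, against 0.34 and 0.14 over all tested genes and 0.88 and 0.39 over genes with transcripts of 7 kb or longer. Over all genes the calls were 5561 higher and 1436 lower in mutants and 2419 and 1079 in controls. With median-of-ratios scaling they were 3376 and 3281 in mutants and 2048 and 2009 in controls. That scaling sets the median of all genes near 0 (0.02 in mutants and 0.01 in controls). With it the same 7 and 3 members were called higher, and Ezh2 and Dnmt1 were called lower in both genotypes.

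Dnmt3a (chr12:3806007-3914443, plus strand, GRCm38, longest annotated transcript 9685 bases), which sets new methylation on DNA, had the clearest zone difference. In mutants it measured 14.4, 16.4, 17.3, 12.9 and 11.8 TPM in centrocytes, against 5.39, 4.48, 3.55, 2.69 and 1.89 TPM in centroblasts. In controls it measured 7.91, 10.7, 11.7, 10.1 and 10.8 TPM in centrocytes, against 3.04, 4.01, 5.21, 4.21 and 4.80 TPM in centroblasts. Every centrocyte library was above every centroblast library of its genotype. The fold change was 1.80 (SE 0.18, limma, adjusted p = 1.08e-07) in mutants and 1.10 (SE 0.18, adjusted p = 1.21e-04) in controls. Without mutant centroblast libraries 4 and 5 it was 1.51 in mutants, and with the length trend removed it was 0.89 in mutants and 0.69 in controls, all still called.

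Tet2 (chr3:133463679-133545139, minus strand, 9179 bases), the TET enzyme most often lost in lymphoma, was scarce in centroblasts and rose in centrocytes. In mutants it measured 5.04, 8.52, 7.50, 5.49 and 3.79 TPM in centrocytes, against 1.65, 1.04, 1.44, 0.863 and 0.609 TPM in centroblasts. In controls it measured 3.03, 6.05, 6.72, 4.33 and 3.42 TPM in centrocytes, against 1.39, 2.64, 0.888, 1.19 and 0.875 TPM in centroblasts. Neither genotype showed overlap between the zones. The fold change was 1.72 (SE 0.23, limma, adjusted p = 2.99e-06) in mutants and 1.25 (SE 0.23, adjusted p = 2.85e-04) in controls. Without mutant centroblast libraries 4 and 5 it was 1.54 in mutants, and with the length trend removed it was 0.84 in mutants and 0.85 in controls, all still called.

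Tet3 (chr6:83362373-83459084, minus strand, 10904 bases), the more abundant TET gene here, followed the same direction. In mutants it measured 19.9, 24.2, 29.8, 25.4 and 18.2 TPM in centrocytes, against 16.2, 7.78, 8.25, 4.10 and 2.32 TPM in centroblasts, and these did not overlap. In controls it averaged 24.5 ± 4.59 TPM in centrocytes and 12.6 ± 3.71 TPM in centroblasts (SD, n = 5 each), where the highest centroblast library, at 18.0 TPM, exceeded the lowest centrocyte library, at 17.9 TPM. The fold change was 1.69 (SE 0.30, limma, adjusted p = 7.41e-05) in mutants and 0.93 (SE 0.30, adjusted p = 0.0210) in controls. The call in controls was lost (fold change 0.84 to 0.87, adjusted p up to 0.0574) without control centroblast library 1 or 3 or control centrocyte library 2 or 3. Without mutant centroblast libraries 4 and 5 the value in mutants was 1.11, and with the length trend removed 0.72 in mutants and 0.48 in controls, each called.

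The acetyltransferase pair rose in mutants, where the size depended on 2 libraries. Crebbp (chr16:4081328-4213997, minus strand, 10820 bases) measured 21.2, 26.9, 28.2, 25.4 and 18.6 TPM in mutant centrocytes, against 20.04, 12.0, 9.05, 4.44 and 2.53 TPM in mutant centroblasts. The lowest were in libraries 5 and 4, and the highest reached into the centrocyte range. Ep300 (chr15:81585351-81652077, plus strand, 9566 bases) averaged 58.4 ± 7.91 TPM in mutant centrocytes and 27.02 ± 15.6 TPM in mutant centroblasts (SD, n = 5 each). The fold changes in mutants were 1.50 (SE 0.31) for Crebbp and 1.25 (SE 0.26) for Ep300 (limma, adjusted p = 3.72e-04 and 3.48e-04). Without libraries 4 and 5 they were 0.83 and 0.72, and with the length trend removed as well they were 0.24 and 0.17 and no longer called. In controls Crebbp averaged 24.4 ± 3.96 TPM in centrocytes and 15.4 ± 3.23 TPM in centroblasts, and Ep300 61.2 ± 10.1 and 39.6 ± 9.03 TPM (SD, n = 5 each). The differences of 0.64 and 0.63 missed the threshold (limma, adjusted p = 0.121 and 0.0686), and they passed it without mutant centroblast libraries 4 and 5, which enter that comparison only through the pooled spread (adjusted p = 0.00536 and 0.00465).

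On TPM as deposited, Ezh2 and Eed of the PRC2 core were close to level between the zones, whereas with median-of-ratios scaling they were called lower in centrocytes, Ezh2 in both genotypes and Eed in mutants. Ezh2 (chr6:47530139-47595341, minus strand, 2787 bases), the methyltransferase, averaged 251 ± 15.0 TPM in centrocytes and 259 ± 31.8 TPM in centroblasts of mutants, and 258 ± 9.34 and 274 ± 17.1 TPM in controls (SD, n = 5 each). Eed (chr7:89954654-89980983, minus strand, 2067 bases), the subunit that reads the mark, averaged 194 ± 5.84 and 203 ± 26.0 TPM in mutants, and 189.8 ± 7.71 and 188 ± 22.5 TPM in controls, in the same order of zones. None of these differences was called, and their 95% intervals lay between -0.25 and 0.20 on the log2 scale. Suz12 (chr11:79993106-80034123, plus strand, 4373 bases), the scaffold subunit, measured 226, 243, 228, 234 and 211 TPM in mutant centrocytes, against 195, 185, 185, 124 and 91.2 TPM in mutant centroblasts. That rise of 0.60 (SE 0.15, limma, adjusted p = 0.00172) was 0.28 without libraries 4 and 5, and 0.12 and no longer called with the length trend removed. In controls the difference of 0.25 missed the threshold (adjusted p = 0.207) and passed it without mutant centroblast libraries 4 and 5 (adjusted p = 0.00704).

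Of the other DNA methyltransferases, Dnmt1 was called in neither genotype on TPM as deposited and called lower in both with median-of-ratios scaling, and Dnmt3b rose in mutants. Dnmt1 (chr9:20907209-20959888, minus strand, 5870 bases), the copying enzyme, averaged 285 ± 31.6 TPM in centrocytes and 281 ± 79.8 TPM in centroblasts of mutants, and 285 ± 11.9 and 317 ± 60.3 TPM in controls (SD, n = 5 each). Its differences of 0.06 and -0.13 were not called, and with the length trend removed it was called lower in both genotypes (-0.58 in mutants and -0.41 in controls). Ezh2 did likewise (-0.33 and -0.19). Dnmt3b (chr2:153649450-153687730, plus strand, 4320 bases) averaged 3.48 ± 0.727 TPM in centrocytes and 1.97 ± 0.331 TPM in centroblasts of mutants, a rise of 0.59 (SE 0.14, limma, adjusted p = 0.00159) that was 0.10 and not called with the length trend removed. In controls it averaged 3.20 ± 0.585 and 2.51 ± 0.424 TPM, a difference of 0.26 (adjusted p = 0.178).

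**Figure D2:**
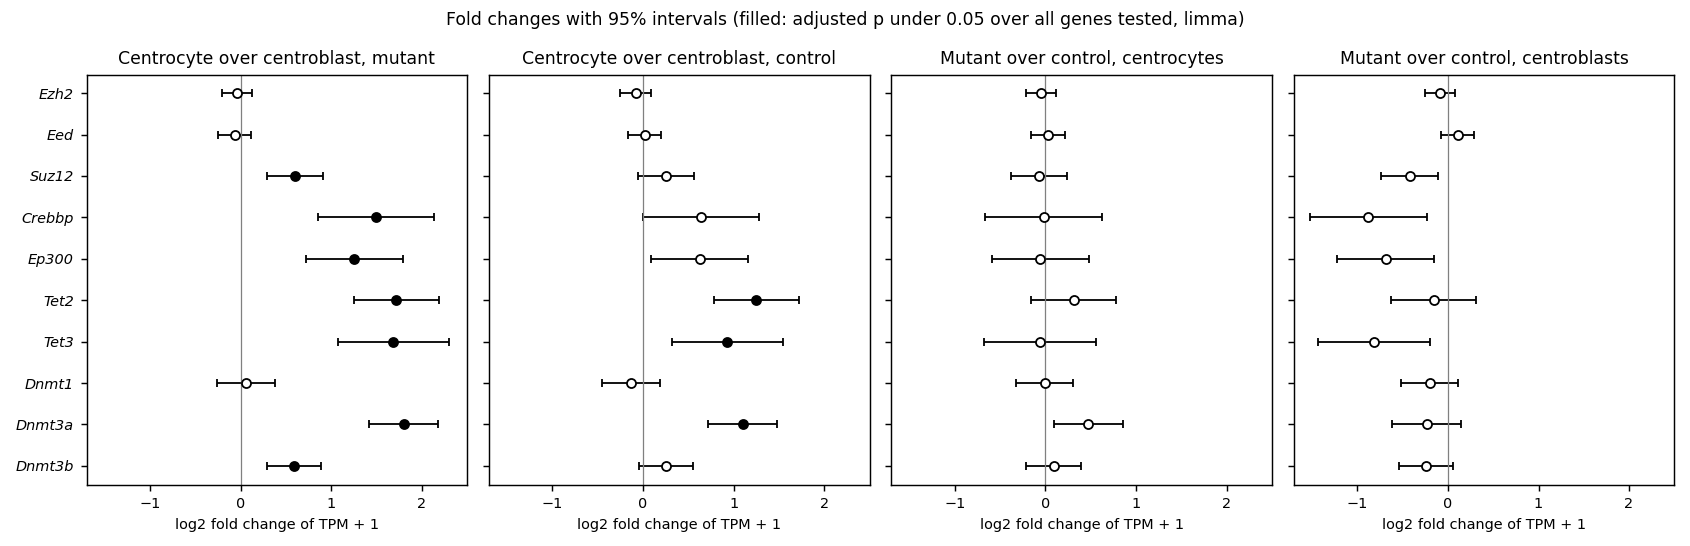
Log2 fold change of TPM + 1 (horizontal axis) of each member with its 95% interval, for centrocytes over centroblasts in mutants and in controls and for mutant over control in centrocytes and in centroblasts; filled points have an adjusted p under 0.05 over all tested genes. Dnmt3a, Tet2 and Tet3 are filled in both zone panels, and no point is filled in the genotype panels.

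Other markers moved with the zones too. Of the 12 tested macrophage, monocyte and neutrophil markers 10 rose in centrocytes of each genotype, and the list summed to 164 to 357 TPM in mutant centrocytes against 57.8 to 132 TPM in mutant centroblasts, and to 187 to 314 TPM in control centrocytes against 66.1 to 87.0 TPM in control centroblasts. All 8 tested naive B cell markers rose, with sums of 1006 to 1262 TPM against 178 to 339 TPM in mutants and of 899 to 1352 TPM against 304 to 489 TPM in controls. Genes of the G2 and M phases summed to 2502 to 3307 TPM in mutant centrocytes against 3221 to 4879 TPM in mutant centroblasts, and to 3096 to 3648 TPM in control centrocytes against 4388 to 5244 TPM in control centroblasts. Their part in the differences of the members was not tested.

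Crebbp, Ep300 and Tet3 varied together. Over the 20 libraries Crebbp correlated with Ep300 at r = 0.987 and with Tet3 at r = 0.981, and Ep300 with Tet3 at r = 0.984, as descriptions of libraries that share their deviations. The plot of members against the median of long-transcript genes shows Crebbp and Tet3 in mutant centroblast libraries 4 and 5 below the line of equal deviation. The centrocyte values of Crebbp, Tet3 and Dnmt3a all lie above that line, and Ezh2 lies near 0 in most libraries.

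**Figure D3:**
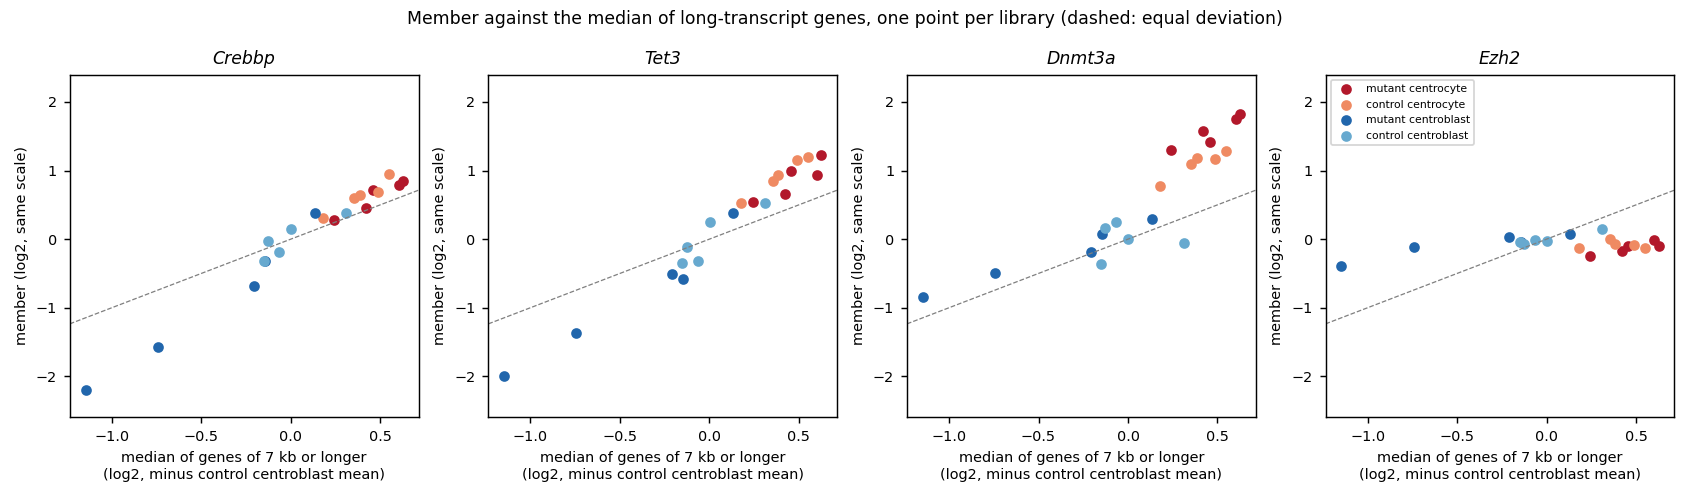
Log2 deviation of Crebbp, Tet3, Dnmt3a and Ezh2 from their mean in control centroblasts (vertical axis) against the median deviation of 821 genes with transcripts of 7 kb or longer in the same library (horizontal axis); each point is a library, coloured by group, and the dashed line marks equal deviation. The leftmost points, at -1.15 and -0.74, are mutant centroblast libraries 5 and 4.

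No member was called between the genotypes. In centrocytes 0 of 10 passed (limma, 1 at an unadjusted p under 0.05), where 1.2% of all genes were called. In centroblasts 0 of 10 passed (limma, 4 at an unadjusted p under 0.05), where 4.29% of all genes were called (0.905% higher and 3.38% lower). No member was without overlap between mutant and control centroblasts (3.74% of all genes). The median change of the members was -0.01 in centrocytes and -0.24 in centroblasts, against 0.02 and -0.16 over all tested genes and 0.06 and -0.42 over genes with transcripts of 7 kb or longer. The difference of the genotype effects between the zones was called for 0 of 10 members (1 at an unadjusted p under 0.05) and for 0.0176% of all genes.

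In centrocytes the member with the smallest p was Dnmt3a, whose mutant libraries, at 11.8 to 17.3 TPM, did not overlap the control libraries, at 7.91 to 11.7 TPM. It was the only 1 of the 10 without overlap, as were 4.63% of all genes. The fold change was 0.47 (SE 0.18, 95% interval 0.09 to 0.85, limma, adjusted p = 0.328), which did not pass. The adjusted p was 0.0706 without mutant centroblast libraries 4 and 5 and 0.0846 with the length trend removed, on values of 0.47 and 0.39. Tet2 averaged 6.07 ± 1.91 TPM in mutant and 4.71 ± 1.61 TPM in control centrocytes (SD, n = 5 each, fold change 0.31, adjusted p = 0.843). For the other 8 members the fold change lay between -0.07 and 0.09, and their 95% intervals were widest for Crebbp (-0.66 to 0.62) and narrowest for Ezh2 (-0.21 to 0.12). Of 4 tested erythroid markers 1 was higher in mutant centrocytes. The list, in which Hba-a1 and Hba-a2 are listed at 0, summed to 233 to 580 TPM in mutant and 42.6 to 273 TPM in control centrocytes, and their part in these values was not tested.

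In centroblasts the differences with an unadjusted p under 0.05 were all lower values in mutants, in Crebbp (-0.88), Tet3 (-0.82), Ep300 (-0.69) and Suz12 (-0.42), with adjusted p between 0.0857 and 0.0962 (limma). Crebbp averaged 9.60 ± 6.92 TPM in mutant and 15.4 ± 3.23 TPM in control centroblasts (SD, n = 5 each). Without mutant libraries 4 and 5 the same 4 values were -0.21, -0.24, -0.15 and -0.10, and without mutant library 1, the one with the highest values of Crebbp, Ep300 and Tet3, all 4 were called. Eed went the other way (0.11), and with median-of-ratios scaling its 0.30 was called higher in mutants (adjusted p = 0.0479), where calls over all genes split into 286 higher and 353 lower, against 103 and 385 without that scaling. Of the 4 tested erythroid markers 3 were higher in mutant centroblasts. They summed, with the untested ones, to 323 to 809 TPM in mutant and 23.2 to 271 TPM in control centroblasts, and their part was not tested.

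The share of 1 gene within a pair of paralogs does not depend on the scaling between libraries. It still depends on length where the partners differ in it, as Dnmt3a and Dnmt3b (9685 and 4320 bases) and Ezh2 and Ezh1 (2787 and 4207 bases) do. Of 16 tests (4 pairs by 4 comparisons, exact permutation test, two-sided, adjusted over the 16), 5 passed, each at the smallest p that 5 against 5 libraries allow (0.00794, adjusted p = 0.0254). Dnmt3a made up 79.9, 84.6, 78.7, 80.5 and 80.0% of the summed TPM of Dnmt3a and Dnmt3b in mutant centrocytes, against 76.3, 78.6, 76.4, 76.4 and 73.2% in control centrocytes. The mutant libraries all lay above the control libraries, with means of 80.7 ± 2.24% and 76.2 ± 1.94% (SD, n = 5 each). The same share averaged 63.1 ± 8.30% in mutant centroblasts and 62.5 ± 6.92% in control centroblasts, below the centrocytes of each genotype. Leaving out any 1 of the mutant centrocyte libraries raised the adjusted p of its genotype and mutant zone tests to 0.0508, and any 1 control centrocyte library that of the control zone test to 0.0544 or 0.0762. The differences stayed at 3.59 to 5.05, 16.7 to 18.2 and 13.05 to 14.4 points, in that order.

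Ezh1, the paralog of Ezh2 that serves resting cells, rose in centrocytes on TPM as deposited, where Ezh2 did not. The fold changes of Ezh1 under other scalings, or without mutant centroblast libraries 4 and 5, are not given here. It averaged 22.2 ± 2.21 TPM in centrocytes and 12.3 ± 4.63 TPM in centroblasts of mutants, and 21.8 ± 3.09 and 14.7 ± 1.60 TPM in controls (SD, n = 5 each), with fold changes of 0.87 and 0.53 (limma, adjusted p = 4.34e-04 and 0.0333). Ezh2 thus made up 91.9 ± 0.842% of the pair in centrocytes and 95.6 ± 1.20% in centroblasts of mutants, and 92.2 ± 1.10% and 94.9 ± 0.643% in controls (exact permutation test, adjusted p = 0.0254 in both genotypes). The control test gave 0.0508 without any 1 control centroblast library, on differences of -2.48 to -2.84 points. In mutant centroblast libraries 4 and 5 Ezh1 was 8.70 and 6.57 TPM. Without them the Ezh2 share in mutant centroblasts was 94.75 ± 0.56% (SD, n = 3). It still differed from mutant centrocytes (exact permutation test, adjusted p = 0.0476). The share of Tet2 in Tet2 and Tet3 was 20.3 ± 3.48% in mutant and 15.8 ± 2.47% in control centrocytes (exact permutation test, adjusted p = 0.0907) and 14.8 ± 4.53% in mutant and 9.79 ± 2.85% in control centroblasts (adjusted p = 0.127), none past the threshold. Crebbp made up 24.5 to 29.1% of the pair with Ep300 in the group means, and none of its tests passed.

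**Figure D4:**
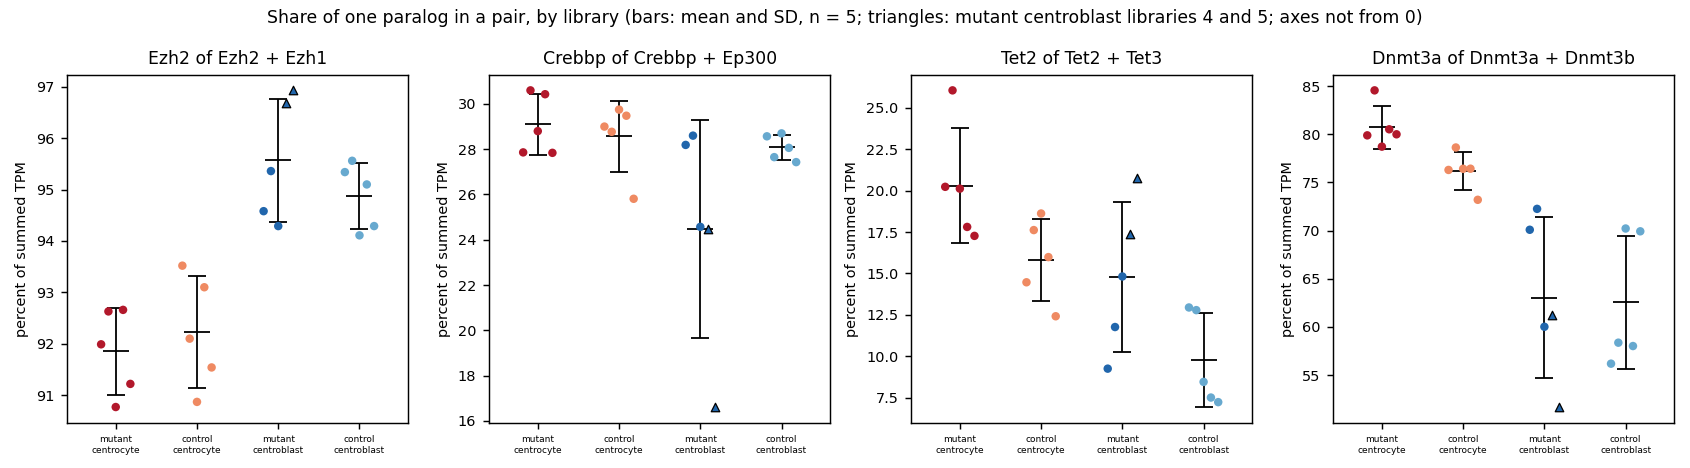
Share of the first gene in the summed TPM of its pair (percent, vertical axes that do not start at 0) in each library of the 4 groups; points are libraries, bars the mean and SD of 5, triangles mutant centroblast libraries 4 and 5. The Dnmt3a share is 78.7% or more in mutant centrocytes, and the Ezh2 share is at most 93.5% in centrocytes and at least 94.1% in centroblasts.

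The partners of the members, in lists chosen by function, were read beside them. The counts are for centrocytes against centroblasts, where 48.8% of all tested genes rose and 12.6% fell in mutants and 21.2% rose and 9.48% fell in controls, so a count near these shares is no result about a list. Medians are log2 fold changes, against 0.34 in mutants and 0.14 in controls over all tested genes. Most balances of higher and lower moved with the scaling, and the counts under median-of-ratios scaling and with the length trend removed stand beside each list. The shares above hold for TPM as deposited only. Over all tested genes, median-of-ratios scaling gave 3376 higher and 3281 lower in mutants, and 2048 and 2009 in controls. With the length trend removed, 2818 were higher and 2870 lower in mutants, and 1967 and 2072 in controls. Counts under an alternative are to be read against these. Of 9 tested PRC2 partners, 5 rose and 3 fell in each genotype (medians 0.78 in mutants and 0.53 in controls), and the counts were 5 and 3 under both alternatives too. In controls Jarid2 (1.18) and Aebp2 (0.69), accessory subunits that guide PRC2 to its targets, rose, while Phf19 (-0.71), the Polycomb-like subunit, and Rbbp4 (-0.44), the histone-binding subunit, fell (limma, adjusted p at most 0.00253). Of 18 tested subunits of Polycomb repressive complex 1, 11 rose in mutants and 6 in controls, with none lower (medians 0.42 and 0.23). With median-of-ratios scaling 5 rose and 3 fell in mutants, and 4 rose and 1 fell in controls. With the length trend removed the counts were 5 and 3 in mutants and 3 and 2 in controls. Those with the lowest adjusted p in controls were Bmi1 (0.86), Rnf2 (0.50), Cbx8 (0.38) and Phc3 (0.73), of which Cbx8 was called under neither alternative. Of 7 histone demethylases 5 rose in mutants and 2 in controls, with none lower (medians 0.64 and 0.29). With median-of-ratios scaling 5 rose and 1 fell in mutants and 2 rose in controls, whereas with the length trend removed 1 rose and 1 fell in mutants and 1 rose in controls. Kdm6b, which removes the mark of PRC2, measured 8.60 TPM in control centrocytes and 3.10 TPM in control centroblasts (1.23, adjusted p = 3.68e-04). Kdm5b rose too (0.66), but not with the length trend removed (0.27, adjusted p = 0.171).

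Of 8 other histone acetyltransferases 4 rose in mutants and 2 in controls, with none lower (medians 0.25 and 0.08), the 2 being Kat2a (0.74) and Kat6b (listed as Myst4, 0.69). Under either alternative 3 rose and 3 fell in mutants. In controls 2 rose and 1 fell with median-of-ratios scaling, and 2 rose and 0 fell with the length trend removed. Of 14 deacetylases and corepressors 7 rose and none fell in mutants, and 3 rose and 1 fell in controls (medians 0.41 and 0.22). With median-of-ratios scaling 5 rose and 3 fell in mutants and 3 rose and 2 fell in controls, and with the length trend removed 3 rose and 6 fell in mutants and 1 rose and 4 fell in controls. Those called in controls included the corepressor genes Bcor (0.76) and Tbl1xr1 (0.53), which rose, and Hdac8 (-0.79), which fell. Tbl1xr1 was not called with the length trend removed.

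Of 11 members of H3K4 methyltransferase complexes 7 rose and 1 fell in mutants, and 3 rose and 1 fell in controls (medians 0.99 and 0.38). The counts were 6 and 3 in mutants with median-of-ratios scaling and 4 and 3 with the length trend removed, and 3 and 3 in controls under both. Called in controls were Kmt2d (listed as Mll2, 1.19) and Kmt2c (Mll3, 0.81), which act with CREBBP at enhancers, Setd1b (0.90), and Dpy30 (-0.23), which was not called with the length trend removed. Of 12 other chromatin genes mutated in lymphoma 5 rose and 3 fell in mutants (median 0.33), and in controls 1 fell (median 0.05), Smarca4 (-1.03), the motor of the SWI/SNF remodeller. With median-of-ratios scaling 5 rose and 4 fell in mutants and 2 rose and 1 fell in controls, and with the length trend removed 2 rose and 5 fell in mutants and 4 fell in controls.

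Among 12 DNA methylation partners 5 rose and 1 fell in mutants, and 1 rose and 1 fell in controls (medians 0.19 and -0.01). The balance turned with the scaling. With median-of-ratios 3 rose and 5 fell in mutants and 1 rose and 4 fell in controls. With the length trend removed 1 rose and 5 fell in mutants and 4 fell in controls. Over all tested genes, too, more were called lower under both alternatives than on TPM as deposited. Called in controls were Hells (0.41), a remodeller that helps the methyltransferases, which was not called with the length trend removed, and Mbd2 (-0.98), a reader of methylated DNA. Among 8 partners of DNA demethylation 4 rose and 2 fell in mutants, and 1 rose and 2 fell in controls (medians 0.18 and 0.10). Under either alternative 2 rose and 4 fell in mutants and 1 rose and 3 fell in controls. Ogt (0.74), a TET partner, rose in controls, and Neil1 (-1.40), a repair glycosylase, and Idh2 (-0.80), which makes the TET cofactor, fell.

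Genes that the members are known to hold down or open were compared as well. Of 12 genes of CREBBP-dependent enhancers 11 rose in mutant and all 12 in control centrocytes (medians 0.90 and 0.77). With median-of-ratios scaling 7 rose in mutants and 9 in controls, and with the length trend removed 11 in each. The lowest adjusted p in controls belonged to the chemokine receptor Ccr6 (3.94), Cd40 (0.93), Fcer2a (1.96) and Cd83 (1.72). Of 5 tested genes that EZH2 is known to repress in germinal centre B cells, 3 rose in each genotype (medians 1.20 in mutants and 0.54 in controls), with values in controls of 1.38 for Irf4, 1.20 for Prdm1 and 0.54 for Cdkn1b, and Cdkn2a fell in controls (-0.77). With median-of-ratios scaling 3 rose and 1 fell in each genotype. With the length trend removed 3 rose and 0 fell in mutants, and 3 rose and 1 fell in controls. Of 22 S phase genes 8 fell in mutants and 9 in controls (medians -0.17 and -0.19), with none higher. With median-of-ratios scaling 19 fell in mutants and 18 in controls, and with the length trend removed 19 and 17. Calls of lower genes over all tested genes also rose under both alternatives, in each genotype. Of 20 G2 and M phase genes 15 fell in mutants and 13 in controls (medians -0.58 and -0.52), with none higher, and under the alternatives 17 or 20 fell in mutants and 16 or 20 in controls. Among those that fell in controls were Mcm5 (-0.47) of the S phase list and Cdc20 (-1.14) and Cenpa (-1.05) of the G2 and M list.

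Between genotypes few genes of these lists were called. In centrocytes Ccr6 (1.08), a CREBBP enhancer gene and chemokine receptor, rose in mutants and the mitotic activator Cdc20 (-0.42) fell, although Cdc20 was not called with median-of-ratios scaling. Cdc20 was the 1 gene called of 20 in the G2 and M list, whose median was -0.26, against 0.02 over all genes. In that list 4 genes fell with the length trend removed, 6 without mutant centroblast libraries 4 and 5, and 0 with median-of-ratios scaling. Over all genes 35 fell as deposited, 101 with the length trend removed and 52 with median-of-ratios scaling. The count over all genes without those 2 libraries is not given here. In centroblasts Mef2b (0.52, limma, adjusted p = 0.0324), a transcription factor gene mutated in lymphoma, rose. Genes that fell there included Cbx2 (-0.42), Hdac8 (-0.54), Hdac9 (-0.69), Idh1 (-0.50), Cdkn1b (-0.63) and Fcer2a (-0.60). Without mutant libraries 4 and 5 the calls of Cbx2, Idh1 and Fcer2a were lost, as they were with median-of-ratios scaling, and with the length trend removed those of Cbx2, Hdac9, Idh1 and Cdkn1b were. No gene of these lists was called for the difference of the genotype effects.

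The genes whose log2(TPM + 1) followed each member most closely over the 20 libraries differed from member to member. Among the first 3 of each, only Ep300 and Tet3 had genes in common. Crebbp was nearest to Prl14l (r = 0.994) and Myst3 (0.993), which encodes the acetyltransferase KAT6A. Ep300 was nearest to Arid1a (0.991) and Tet3 to Wnk1 (0.992), and Arid1a and Wnk1 stood in the first 3 of both. Suz12 was nearest to Pds5a (0.989) and Tet2 to Bclaf1 (0.980). Dnmt3a was nearest to Ift140 (0.985), Icam1 (0.979) and Ikbke (0.979), Dnmt1 to Zfp710 (0.942) and the chromatin assembly factor Chaf1a (0.939), Ezh2 to Nucks1 (0.909), Dnmt3b to Aff3 (0.906) and Eed to Selk (0.855). The libraries share group and composition, so these values describe likeness and no more.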

How the data were processed

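The authors deposited TPM per gene symbol for 20 libraries that, per the labels' protocols, were made with a stranded mRNA kit. STAR and mm10 are named in the submitters' processing notes. Tool versions, annotation and read counter were not given in the sources used here. Since TPM keeps no depth, none is given per library. Samples were grouped by sort and genotype labels. limma 3.58.1 in R 4.3.3 (trend and robust, two-sided) was run on log2(TPM + 1), with 4 group means, 16 residual degrees of freedom and all genes of at least 1 TPM in at least 5 libraries. Paralog shares used an exact permutation test. The fit was tested on simulated data. Positions and transcript lengths are from GENCODE M21 (GRCm38) and promoters from RefSeq. Of 166 genes in the lists 165 were found. Text names all members, the check genes, list genes called between genotypes, up to 4 called per list between zones in controls, and up to 3 nearest genes per member. Some genes that this rule names are not reported here. The members and lists were chosen with earlier results of these data known. Same-numbered libraries of 2 groups had deviations that correlated between -0.246 and 0.269, with at most 4 of 5 pairs over 0.1. Between the zones of a genotype they averaged 0.16 in controls and 0.17 in mutants, against -0.04 in both for other numbers. Between genotypes they averaged 0.11 in centrocytes and -0.01 in centroblasts. The labels do not say that a number marks a shared mouse, so the main fit took no pairs. Fits with a replicate block are given as alternatives. Alternatives were the pseudocount, filters, scaling, fit options, replicate block, libraries left out and removal of the length trend (lowess, span 0.3).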

Additional observations from a re-analysis of the deposited data

Results flagged for a closer look

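Of 40 sets of 5 libraries (10 genes by 4 groups), 2 held a library whose gap to the nearest other exceeded the critical share of 0.71 of the range, as about 1 in 20 does by chance. Both were control centroblast library 2. Ezh2 was 303.5 TPM in it and 260.0 to 271 TPM in the other 4, and Suz12 was 254 TPM in it and 185 to 196 TPM in the other 4. In that library the median of genes with transcripts of 7 kb or longer was 0.31 on the log2 scale above the mean of control centroblasts, the highest of its group, and its part in these values was not tested.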

How the results depend on the processing

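For mutant against control centroblasts, 0 members were called, 1 with median-of-ratios scaling, and 0 to 4 with 1 library left out. For mutant against control centrocytes and for the difference of the effects the count was 0 under every alternative, libraries left out included. For the zones in controls it was 3, and 5 with median-of-ratios scaling, 6 with only the 2 groups fitted, 6 without mutant centroblast libraries 4 and 5, 5 with the length trend removed, 5 with both, and 2 to 5 with 1 library left out. For the zones in mutants it was 7 (all higher), and 10 with median-of-ratios scaling (7 higher, 3 lower), 8 with the length trend removed (5 higher, 3 lower), 6 with that and libraries 4 and 5 left out (3 and 3), 6 with the filter at 5 TPM, and 7 whichever single library was left out. In controls the calls under the first 2 of these were 3 higher and 2 lower. Paralog shares past the threshold were 5 of 16, 6 without libraries 4 and 5, and 3 to 6 with 1 library left out. Of 109 values of called members under alternatives other than leaving out 1 library 103 kept direction and call, 6 lost the call with the length trend removed (Suz12 and Dnmt3b in mutants, with and without libraries 4 and 5, and Crebbp and Ep300 without them), and 0 reversed. With 1 library left out the call of Tet3 in controls was lost in 4 of 20 fits. With the replicate block the counts were 0, 0, 0, 3 and 7, and a block within genotype gave 4 for the zones in controls by adding Ep300 (0.63). The cause of these shifts was not tested. Values without counts give no depth, which limits the lowest members, Tet2 and Dnmt3b, most.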
